A study of Mus musculus with 42 samples.

Results

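The addition of an antibody against IL2RB to PD-1 blockade was examined in 17 tumors, taken as all tumors labelled aPD1 + aIL2RB (n = 11) and all labelled aPD1 (n = 6) out of 42 tumors in 5 treatment groups. The tumors grew from MC38, a mouse colon carcinoma line, after injection under the skin of female CC75xB6 mice aged 8 to 12 weeks, the F1 offspring of the Collaborative Cross strain CC075/UncJ and C57BL/6J. From engraftment on, mice received 200 µg of the IL2RB antibody (clone TM-Beta 1) or of isotype control antibody every 3 days. Once tumors measured 75 to 110 mm3, both groups received a single 200 µg dose of the PD-1 antibody 29F.1A12, and poly(A) RNA was taken from whole tumors 48 h later. The other tumors used here were isotype (n = 5), given control antibodies only, and aPD1 + aGMCSF (n = 9), given 100 µg of an antibody against GM-CSF in place of the one against IL2RB. Tumors given both antibodies with PD-1 blockade, aPD1 + aGMCSF + aIL2RB (n = 11), entered the filter and the model, which pools the spread over all 5 groups, and are not compared here. All groups share 1 tumor line and 1 hybrid background, so the groups differ in treatment and not in tumor or host genotype.

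IL2RB is the beta chain shared by the receptors for IL-2 and IL-15. Together with the common gamma chain it passes the signal of both cytokines to JAK1 and JAK3 and on to STAT5. NK cells and memory or effector CD8 T cells depend on this signal for survival and expansion, and regulatory T cells carry it together with the alpha chain IL2RA. Interferon-gamma from T and NK cells in turn induces genes in macrophages, dendritic cells and tumor cells.

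Total counts per tumor were 15109228 to 24101674 in aPD1 and 17276984 to 23525678 in aPD1 + aIL2RB tumors, and rRNA genes took 4.57% to 17.9% and 3.44% to 12.0% of them. The tumors were divided by replicate number into 2 sets that the labels do not name. The first set held aPD1 replicates 1 to 3 and aPD1 + aIL2RB replicates 1 to 6, and the second the others. Krt8 was at 0 to 0.319 CPM in the first-set tumors of both groups and 0.774 to 7.83 CPM in the second, and Prlr at 0 to 0.479 and 0.907 to 5.98 CPM. The division was made with earlier results of these data known, and both genes were chosen after their values were seen. The first principal component of the most variable genes (17.5% of the variance, deviations from group means) was below 0 in the first set and above 0 in the second, except in first-set aPD1 replicate 2 (15.2) and aPD1 + aIL2RB replicate 2 (6.25) and second-set aPD1 replicate 6 (-8.99) and aPD1 + aIL2RB replicate 11 (-5.22) of the 17 tumors. Levels are given as CPM, the TMM-normalized counts scaled to a common total per tumor, and changes as log2 fold changes of aPD1 + aIL2RB minus aPD1 with their standard error (SE) and the adjusted p-value of edgeR's quasi-likelihood test. A gene was called changed at an adjusted p under 0.05. Nothing in the labels says how tumors were shared between mice or days, so p-values measure the spread between these tumors.

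Of 16932 genes tested, 4647 (27.4%) were called. Of these, 2198 (13%) were higher and 2449 (14.5%) lower in aPD1 + aIL2RB than in aPD1 tumors. At least 2-fold changes made up 952 of the genes called lower and 163 of those called higher, and at least 4-fold changes 259 and 23. The median log2 fold change was -0.81 among genes called lower, 0.32 among those called higher and 0.00 over all genes. Levels of the groups did not overlap for 507 genes lower (2.99%) and 207 higher (1.22%). Scaling by library size alone shifted the median of all genes to 0.07 and the calls to 3125 higher and 1981 lower. Jak1, Bcl2, Irf1, Tgfb1 and Pcna were then not called. Leaving out aPD1 + aIL2RB replicates 3 and 9, which lay nearest to aPD1 of the 11 tumors in 16.7% and 44.6% of 3949 called genes, gave 5108 calls. This choice was made after seeing the data, and leaving out tumors near aPD1 by itself favors more calls.

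**Figure D1:**
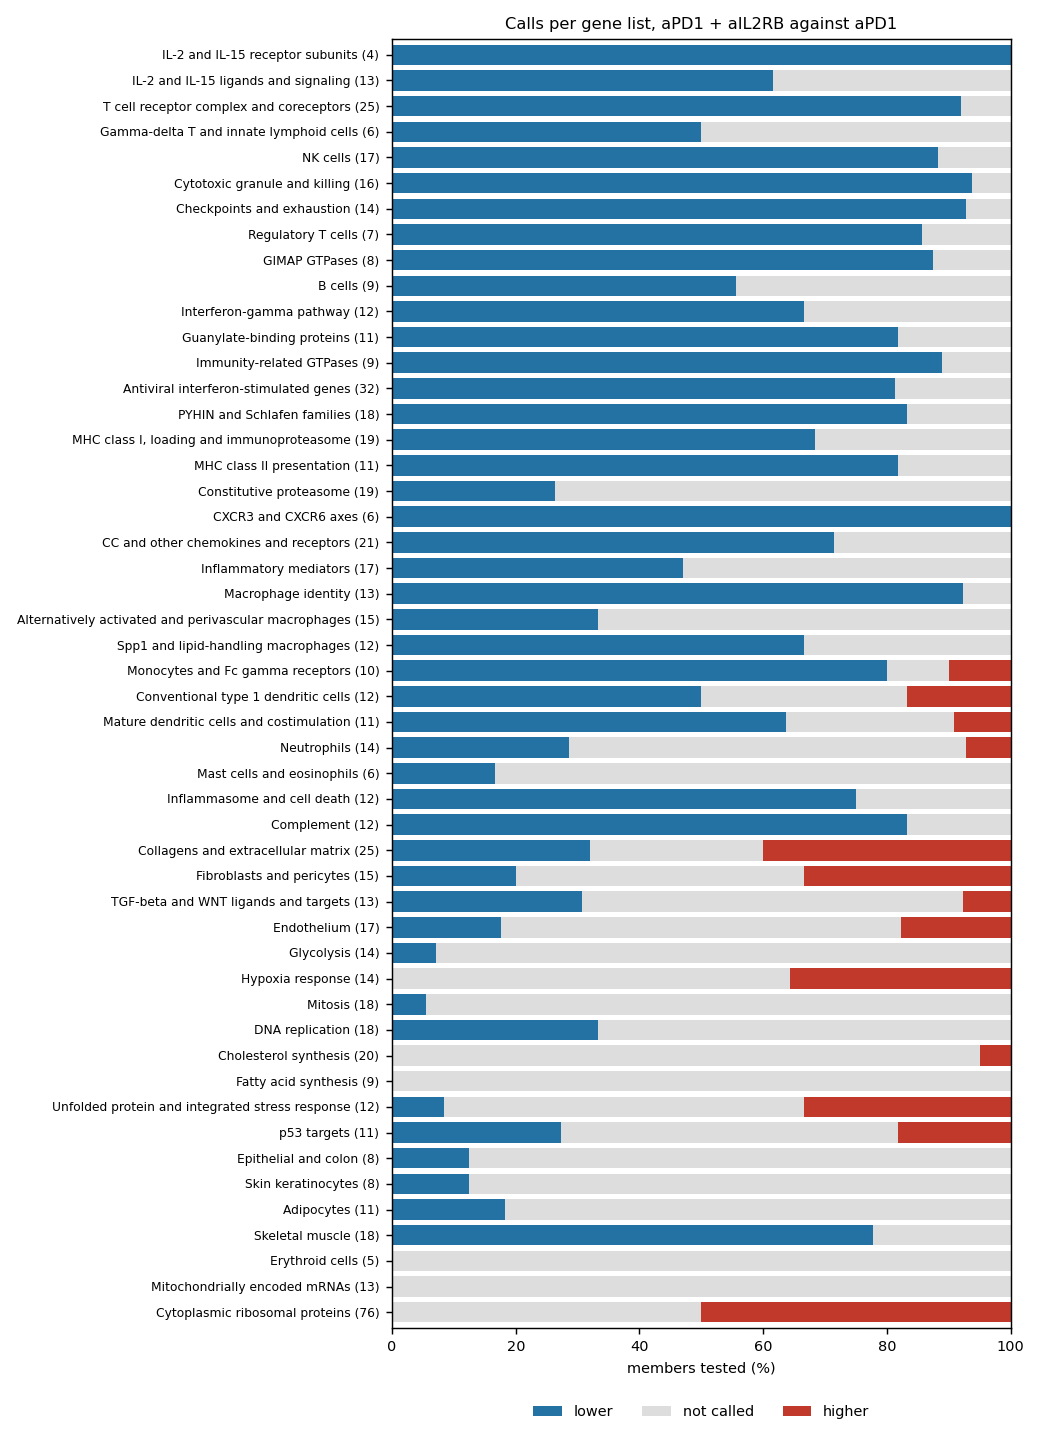
Share of the tested members of each gene list (x axis, percent, number tested in parentheses) that were lower (blue), higher (red) or not called (gray) in aPD1 + aIL2RB against aPD1 tumors at an adjusted p under 0.05. Lists of T cells, NK cells and cytotoxic granules were nearly all lower, with 23 of 25, 15 of 17 and 15 of 16 members, and the ribosomal protein list held the most higher calls, 38 of 76.

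Il2rb (ENSMUSG00000068227, chr15:78479256-78495271 of GRCm38, minus strand), which encodes the antibody's target, was at 30.4 to 62.4 CPM (median 38.04) in the aPD1 tumors and 0.479 to 11.3 CPM (median 3.08) in the aPD1 + aIL2RB tumors. Every aPD1 + aIL2RB tumor lay below every aPD1 tumor, and replicate 2 was the lowest of them and replicate 3 the highest. Il2rb fell by 3.55 on the log2 scale (SE 0.48, adjusted p = 5.22e-07), with changes of -3.16 in the first set (adjusted p = 4.48e-04) and -4.25 in the second (adjusted p = 1.21e-07). All 4 receptor subunits were called lower. Il2rg, the common gamma chain of receptors for IL-2, IL-4, IL-7, IL-15 and IL-21, fell from a median of 104 to 34.7 CPM (log2 fold change -1.47, SE 0.20, adjusted p = 8.56e-07) without overlap of the groups. Il2ra, the high-affinity alpha chain, fell from a median of 7.96 to 2.42 CPM (log2 fold change -1.60, SE 0.35, adjusted p = 4.29e-04), and the levels of the groups overlapped. Il15ra, which presents IL-15 to neighboring cells, moved least (log2 fold change -0.32, SE 0.09, adjusted p = 0.00462), and its call was lost in the second set alone (-0.33, adjusted p = 0.0701). Relative to Cd3e, a chain of the T cell receptor complex (prior count 2, a pair chosen after its values were seen and given without a test), the log2 ratio of Il2rb was 1.98 ± 0.20 (SD, n = 6) among aPD1 tumors against 1.01 ± 0.82 (SD, n = 11) among aPD1 + aIL2RB tumors, a difference of -0.97. Within sets it was -1.12 in the first set and -0.81 in the second. In bulk RNA, fewer cells of a type and less RNA per cell cannot be told apart.

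Among 13 tested ligands and signaling genes of IL-2 and IL-15, 8 were called lower and none higher, with a median of -0.33. Cish, a STAT5-induced inhibitor of cytokine signaling, was at 3.22 to 8.26 CPM (median 5.95) in the aPD1 tumors and 0.771 to 2.46 CPM (median 1.38) in the aPD1 + aIL2RB tumors. The groups did not overlap, and Cish fell (log2 fold change -2.03, SE 0.26, adjusted p = 3.62e-07). Socs3, another inhibitor of cytokine signaling, fell from a median of 68.4 to 31.8 CPM (log2 fold change -0.81, SE 0.17, adjusted p = 2.29e-04). Changes were small for Jak1 (log2 fold change -0.17, SE 0.04, adjusted p = 0.00243), a kinase of the receptor, and for Bcl2, a survival factor of lymphocytes (log2 fold change -0.27, SE 0.08, adjusted p = 0.0122). The call of Jak1 was lost in the first set alone (adjusted p = 0.190) and that of Bcl2 in the second (adjusted p = 0.255). Il15 itself was at 6.38 to 7.82 CPM (median 7.51) in the aPD1 tumors and 4.13 to 7.87 CPM (median 5.93) in the aPD1 + aIL2RB tumors and was not called (log2 fold change -0.27, SE 0.16, adjusted p = 0.209). Il2 was too low to be tested, with 7.1 counts over the 6 aPD1 and 15.2 over the 11 aPD1 + aIL2RB tumors.

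Of 25 genes of the T cell receptor complex and coreceptors, 23 fell and none rose, with a median log2 fold change of -2.94 and no overlap of the groups for 20. Cd3e, a signaling chain of the receptor, was at 6.77 to 15.1 CPM (median 10.4) in the aPD1 tumors and 0.302 to 3.100 CPM (median 1.16) in the aPD1 + aIL2RB tumors. Cd8a, the coreceptor of cytotoxic T cells, was at 23.7 to 48.2 CPM (median 29.9) in the aPD1 tumors and 0.373 to 7.63 CPM (median 2.32) in the aPD1 + aIL2RB tumors. The lowest aPD1 tumor lay above the highest aPD1 + aIL2RB tumor in both genes, and the log2 fold changes were -2.88 (adjusted p = 1.42e-05) and -3.73 (adjusted p = 1.23e-06). Trac, the constant part of the receptor alpha chain, fell from a median of 12.1 to 1.57 CPM (log2 fold change -2.94, SE 0.43, adjusted p = 2.04e-06). Lck, the kinase that starts receptor signaling, fell from a median of 17.95 to 1.48 CPM (log2 fold change -3.03, SE 0.40, adjusted p = 5.07e-07). Cd3g fell from a median of 11.9 to 0.652 CPM (log2 fold change -3.55, SE 0.51, adjusted p = 1.41e-06).

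Cd4, the coreceptor of helper and regulatory T cells, was at 2.21 to 6.95 CPM (median 3.199) in the aPD1 tumors and 0.252 to 4.71 CPM (median 1.704) in the aPD1 + aIL2RB tumors, with levels that overlapped, and did not pass the threshold (log2 fold change -1.05, SE 0.43, adjusted p = 0.0630), although in the second set alone the change was -2.03 (adjusted p = 0.00317). Cd4 was also called without aPD1 + aIL2RB replicate 1 (-1.19, adjusted p = 0.0397) or 3 (-1.27, adjusted p = 0.0221) and without aPD1 replicate 3 (-1.18, adjusted p = 0.0480). With the set as a term in the model Cd4 passed too. Ratios of gene pairs within a tumor were taken in log2 CPM with 2 as the prior count. All 10 pairs were chosen after their values were seen, so they are given as a description, without a test. The log2 ratio of Cd8a to Cd4 was 3.10 ± 0.25 (SD, n = 6) among aPD1 tumors against 0.33 ± 0.91 (SD, n = 11) among aPD1 + aIL2RB tumors, a difference of -2.77. The difference was -3.09 in the first set and -2.36 in the second. Tcf7, a transcription factor of naive and stem-like T cells, was at 15.4 to 19.4 CPM (median 16.9) in the aPD1 tumors and 16.4 to 19.96 CPM (median 17.6) in the aPD1 + aIL2RB tumors and was not called (adjusted p = 0.425). It was at 17.2 to 19 CPM in isotype tumors. In the aPD1 + aIL2RB tumors it stood far above Cd3e, at 0.302 to 3.10 CPM, and which cells held Tcf7 RNA was not tested.

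Of 7 genes of regulatory T cells 6 were called lower, with a median of -1.12. In the first set alone 2 were called lower and 1 higher, with a median of -0.80. In the second 4 were lower and none higher, with a median of -1.69. Foxp3, their lineage factor, was at 1.36 to 5.34 CPM (median 3.36) in the aPD1 tumors and 0.504 to 3.34 CPM (median 1.55) in the aPD1 + aIL2RB tumors, which overlapped. Its change of -1.12 (SE 0.37, adjusted p = 0.0190) was no longer called without aPD1 replicate 1 (adjusted p = 0.0748) or in the first set alone (adjusted p = 0.114). Relative to Cd4, the log2 ratio of Foxp3 was -0.25 ± 0.37 (SD, n = 6) among aPD1 tumors against -0.16 ± 0.49 (SD, n = 11) among aPD1 + aIL2RB tumors, a difference of 0.09. The difference was -0.13 in the first set and 0.36 in the second. Tnfrsf18, which encodes GITR, fell from a median of 4.34 to 2.34 CPM (log2 fold change -0.98, SE 0.24, adjusted p = 0.00158), and Il10 fell from a median of 1.95 to 0.379 CPM (log2 fold change -2.35, SE 0.59, adjusted p = 0.00231). Both lost the call in the first set alone (adjusted p = 0.124 and 0.268).

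**Figure D2:**
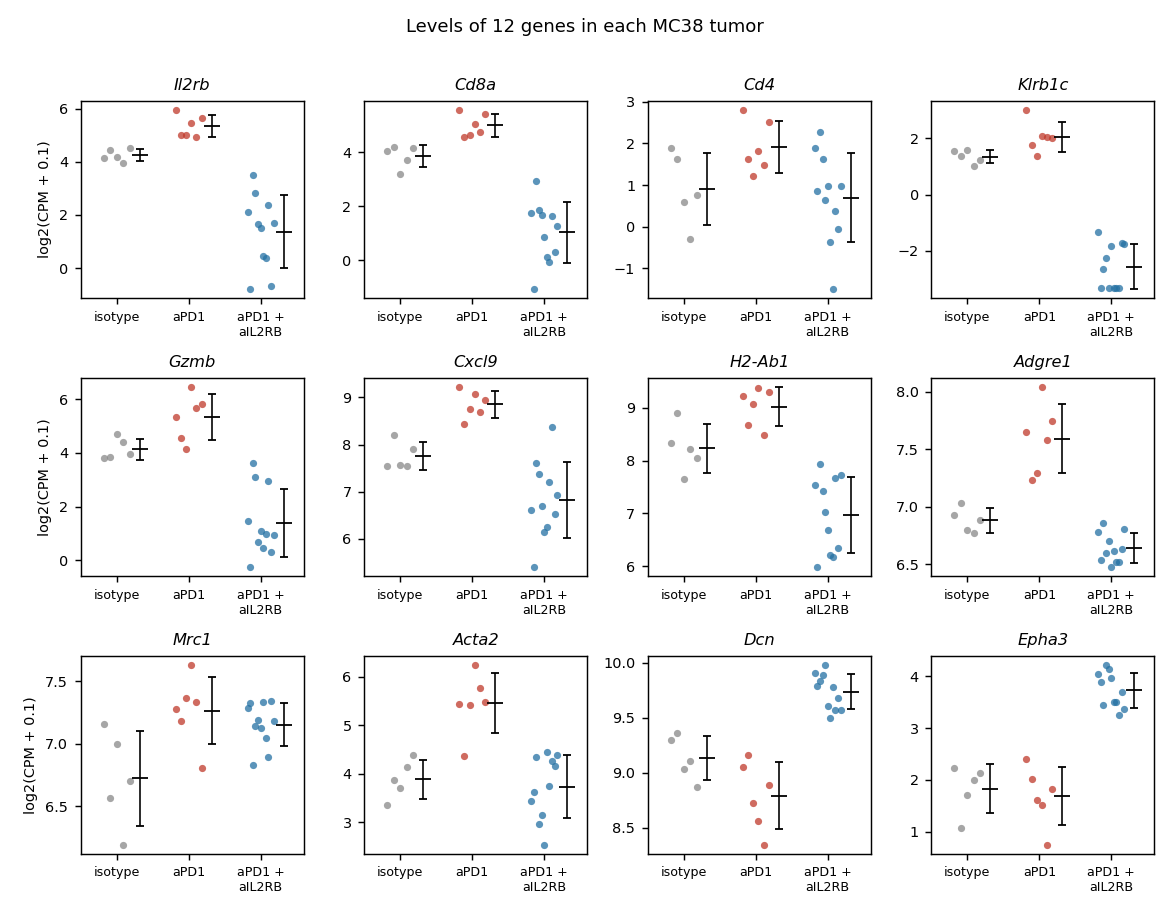
Levels of 12 genes in each isotype (gray), aPD1 (red) and aPD1 + aIL2RB (blue) tumor on a log2 scale of CPM plus 0.1, with the mean and SD beside the points. Il2rb, Cd8a, Klrb1c, Gzmb, Cxcl9, H2-Ab1 and Adgre1 were lower in all 11 aPD1 + aIL2RB than in all 6 aPD1 tumors, Dcn and Epha3 were higher in all 11, and Cd4, Mrc1 and Acta2 overlapped.

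Of 17 NK cell genes, 15 fell, with a median of -3.41 and no overlap for 14. Ncr1 (NKp46), an activating receptor carried almost only by NK cells and innate lymphoid cells, had 187 counts over the 6 aPD1 tumors, with 0.503 to 3.54 CPM, and 0 counts in all 11 aPD1 + aIL2RB tumors. Set against 3 counts over the group, Ncr1 was at least 124.5-fold lower. Klra7, an inhibitory Ly49 receptor, was likewise at 0 in all 11 tumors, against 74 counts in aPD1, and was at least 49.28-fold lower. Klrb1c (NK1.1) was at 2.51 to 8.01 CPM (median 3.96) in the aPD1 tumors and 0 to 0.297 CPM (median 0.0596) in the aPD1 + aIL2RB tumors, and 5 of the 11 tumors had no count. It changed by -5.37 (SE 0.48, adjusted p = 1.23e-10). Receptors shared with CD8 T cells kept low levels. Klrc1 (NKG2A) fell from a median of 13.1 to 0.449 CPM (log2 fold change -3.88, SE 0.62, adjusted p = 7.31e-06), Klrd1 (CD94) from a median of 8.54 to 0.809 CPM (log2 fold change -3.61, SE 0.49, adjusted p = 6.93e-07) and Klrk1 (NKG2D) from a median of 32.8 to 4.397 CPM (log2 fold change -2.59, SE 0.42, adjusted p = 8.51e-06). Of 6 tested genes of gamma-delta T cells and innate lymphoid cells, 3 were called lower, and Trdc, below the filter, had 63 counts over the aPD1 and 6 over the aPD1 + aIL2RB tumors.

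Of 16 genes of cytotoxic granules and killing, 15 fell, with a median of -3.65. Gzmb (granzyme B, chr14:56258838-56262260, minus strand), a serine protease that triggers apoptosis in target cells, was at 17.6 to 87.05 CPM (median 45.8) in the aPD1 tumors and 0.745 to 12.4 CPM (median 1.86) in the aPD1 + aIL2RB tumors. Prf1, the pore former that delivers granzymes, was at 9.54 to 34.6 CPM (median 15.9) in the aPD1 tumors and 0.135 to 6.26 CPM (median 1.27) in the aPD1 + aIL2RB tumors. Neither overlapped, and aPD1 replicate 4 and aPD1 + aIL2RB replicate 3 were the highest of their groups in both. The log2 fold changes were -3.64 (adjusted p = 9.01e-06) and -3.47 (adjusted p = 3.17e-05). The granzymes near Gzmb on chromosome 14 had larger fold changes. Gzmc (chr14:56231441-56234656) fell from a median of 25.4 to 0.599 CPM (log2 fold change -5.33, SE 0.55, adjusted p = 4.80e-09), and Gzmf (chr14:56205263-56211417) fell from a median of 33.04 to 0.285 CPM (log2 fold change -6.10, SE 0.69, adjusted p = 3.69e-08). Gzmg (chr14:56156582-56159579), at 2.95 to 94.8 CPM in aPD1 tumors, had no count in 7 of the 11 aPD1 + aIL2RB tumors and at most 0.254 CPM (adjusted p = 5.39e-11). Gzma (granzyme A), on chromosome 13, was at 3.02 to 12.9 CPM in aPD1 tumors and had counts in only 2 of the 11 aPD1 + aIL2RB tumors (adjusted p = 4.17e-12).

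The log2 ratio of Gzmb to Cd8a was 0.33 ± 0.73 (SD, n = 6) among aPD1 tumors against 0.37 ± 0.73 (SD, n = 11) among aPD1 + aIL2RB tumors, a difference of 0.04. The difference was 0.54 in the first set and -0.44 in the second. Serpinb9, an inhibitor of granzyme B that many cells express, fell from a median of 35.2 to 25.2 CPM (log2 fold change -0.51, SE 0.09, adjusted p = 2.85e-05), and Fasl, the death ligand, from a median of 3.44 to 0.190 CPM (log2 fold change -3.82, SE 0.66, adjusted p = 2.46e-05). Gzmm was the member that was not called, at 0.150 to 0.473 CPM (median 0.306) in the aPD1 tumors and 0.106 to 0.635 CPM (median 0.285) in the aPD1 + aIL2RB tumors (adjusted p = 0.954). Dsc2, which encodes a desmosomal cadherin and is in none of the lists, was among the 6 genes with the smallest p. It was at 1.03 to 6.58 CPM in aPD1 tumors, and 10 of the 11 aPD1 + aIL2RB tumors had no count (adjusted p = 1.15e-10).

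Other lymphocyte genes followed. Ms4a4b, a T and NK cell surface protein, fell from a median of 27.9 to 1.59 CPM (log2 fold change -3.57, SE 0.49, adjusted p = 8.27e-07), and Ikzf3 (Aiolos), a lymphocyte transcription factor, from a median of 9.21 to 0.806 CPM (log2 fold change -3.48, SE 0.49, adjusted p = 1.01e-06). Of 8 tested GIMAP GTPases, which support lymphocyte survival, 7 fell with a median of -1.61, led by Gimap3 (log2 fold change -3.38, SE 0.44, adjusted p = 4.32e-07). Gimap4 and Gimap6 fell by 1.11 and 0.76. Of 9 tested B cell genes, 5 were called lower, against 3 with DESeq2, 3 with only the groups compared in the fit and 2 in the first set alone. Ighm, the heavy chain of IgM, was at 25.9 to 59.3 CPM (median 31.03) in the aPD1 tumors and 11.2 to 26.1 CPM (median 13.6) in the aPD1 + aIL2RB tumors (log2 fold change -1.19, SE 0.16, adjusted p = 4.17e-07), and the groups overlapped only through aPD1 + aIL2RB replicate 11.

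Of 14 tested checkpoint and exhaustion genes, 13 fell, with a median of -2.005. Pdcd1, which encodes the receptor bound by the PD-1 antibody in both groups, was at 7.198 to 17.8 CPM (median 12.5) in the aPD1 tumors and 0.809 to 6.02 CPM (median 2.37) in the aPD1 + aIL2RB tumors and did not overlap (log2 fold change -2.38, SE 0.35, adjusted p = 1.79e-06). Its ligand gene Cd274 (PD-L1) was at 92.2 to 181 CPM (median 128) in the aPD1 tumors and 33.1 to 155 CPM (median 50.2) in the aPD1 + aIL2RB tumors. The groups overlapped because aPD1 + aIL2RB replicate 9 stood far above the others, and Cd274 fell by 0.9997 (SE 0.26, adjusted p = 0.00338). Havcr2 (TIM-3) fell from a median of 46.6 to 21.8 CPM (log2 fold change -1.12, SE 0.17, adjusted p = 4.45e-06), Entpd1 (CD39) from a median of 86.9 to 38.3 CPM (log2 fold change -1.08, SE 0.22, adjusted p = 2.56e-04) and Tnfrsf9 (4-1BB), a costimulatory receptor of activated T cells, from a median of 16.8 to 4.397 CPM (log2 fold change -1.93, SE 0.25, adjusted p = 3.30e-07).

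Most genes induced by interferons were lower. A pair of DNA motifs is known from promoters of such genes: GAS, searched as TTCNNNGAA, which reads the same on both strands, and the core of ISRE, searched as a pair of GAAA separated by any 2 bases, on the other strand a pair of TTTC. In RefSeq windows of GRCm38.p6 from 250 bases before to 50 after a gene's start, GAS was found in 8.30% and the ISRE core in 3.44% of all 32851 windows. The 300-base windows of Gbp5 at chr3:142496684-142496983 (plus strand), Igtp at chr11:58199306-58199605 (plus strand), Irf1 at chr11:53769764-53770063 (plus strand) and Gbp2b at chr3:142594597-142594896 (plus strand) are shown because these genes represent the interferon-inducible families described next, with motif matches in capitals. Irf1 has a second window without a match.
Gbp5: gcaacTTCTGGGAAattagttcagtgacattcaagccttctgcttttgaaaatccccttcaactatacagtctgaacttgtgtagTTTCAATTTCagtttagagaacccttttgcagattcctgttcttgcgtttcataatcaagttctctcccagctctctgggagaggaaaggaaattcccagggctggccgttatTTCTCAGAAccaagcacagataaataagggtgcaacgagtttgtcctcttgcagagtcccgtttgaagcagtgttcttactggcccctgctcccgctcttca
Igtp: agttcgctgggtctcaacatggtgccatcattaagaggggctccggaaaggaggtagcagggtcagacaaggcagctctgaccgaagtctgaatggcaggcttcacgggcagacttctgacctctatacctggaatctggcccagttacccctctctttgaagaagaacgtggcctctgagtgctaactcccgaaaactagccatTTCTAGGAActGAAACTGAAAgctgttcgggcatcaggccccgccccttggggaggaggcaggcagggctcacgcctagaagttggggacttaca
Irf1: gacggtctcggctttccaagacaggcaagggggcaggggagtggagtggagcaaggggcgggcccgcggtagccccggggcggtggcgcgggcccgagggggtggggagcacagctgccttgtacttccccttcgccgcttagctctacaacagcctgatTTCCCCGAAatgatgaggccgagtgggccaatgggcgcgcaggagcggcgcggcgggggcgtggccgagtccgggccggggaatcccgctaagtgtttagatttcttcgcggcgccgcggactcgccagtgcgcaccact
Gbp2b: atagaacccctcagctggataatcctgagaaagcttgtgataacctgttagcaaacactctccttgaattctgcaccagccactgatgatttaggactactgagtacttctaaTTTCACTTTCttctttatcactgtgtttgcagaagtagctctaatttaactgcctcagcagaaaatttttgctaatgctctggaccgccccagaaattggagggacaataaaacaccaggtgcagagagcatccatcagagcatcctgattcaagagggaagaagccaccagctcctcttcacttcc
The matches are 2 GAS and 1 ISRE core in Gbp5, 1 of each in Igtp, 1 GAS in Irf1 and 1 ISRE core in Gbp2b. With a gene counted once when any of its windows matched, the ISRE core was found in 7.60% of 1802 genes called lower that have a window, 3.19% of 1631 called higher and 3.94% of 11465 tested. GAS was found in 10.5%, 7.97% and 8.38% of the same genes. Among members with a window, the ISRE core was found in all 5 guanylate-binding protein genes, 5 of 6 immunity-related GTPases, 15 of 24 antiviral genes and 11 of 17 PYHIN and Schlafen genes. It was found in 1 of 7 interferon-gamma pathway, 1 of 9 class II, 5 of 17 class I, 2 of 15 cytotoxic and 0 of 15 T cell receptor genes. GAS was found in 2, 4, 6 and 0 members of the first 4 lists and in 2, 1, 2, 4 and 1 of the others.

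Ifng, the cytokine itself, was at 3.23 to 6.08 CPM (median 4.25) in the aPD1 tumors and 0.0911 to 3.65 CPM (median 0.593) in the aPD1 + aIL2RB tumors. Of the 11 tumors 10 lay at or below 1.21 CPM, and replicate 9 alone reached into the range of aPD1. Ifng fell (log2 fold change -2.28, SE 0.51, adjusted p = 6.83e-04). Of 12 genes of its pathway 8 were called lower and none higher, with a median of -0.77. Nlrc5, the transactivator of MHC class I genes, fell from a median of 233 to 109 CPM (log2 fold change -0.92, SE 0.22, adjusted p = 0.00138). Irf1, whose window is printed above, moved less (log2 fold change -0.31, SE 0.10, adjusted p = 0.0208), and the call was lost without aPD1 replicate 1 or 4 (adjusted p up to 0.0794) and in the second set alone (adjusted p = 0.189).

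Guanylate-binding proteins and immunity-related GTPases, which attack the vacuoles of intracellular pathogens, fell in 9 of 11 and 8 of 9 members, with medians of -0.89 and -0.97. Gbp2b was at 13.2 to 41.5 CPM (median 25.7) in the aPD1 tumors and 0.775 to 10.7 CPM (median 1.59) in the aPD1 + aIL2RB tumors. It was 1 of 2 members of its family without overlap (log2 fold change -3.14, SE 0.50, adjusted p = 7.00e-06). Gbp5 fell from a median of 106 to 39.99 CPM (log2 fold change -1.15, SE 0.27, adjusted p = 0.00126), Gbp7 from a median of 306 to 164 CPM (log2 fold change -0.73, SE 0.22, adjusted p = 0.00934) and Gbp4 from a median of 195 to 81.1 CPM (log2 fold change -0.99, SE 0.30, adjusted p = 0.0105). Of the GTPases, Iigp1 fell from a median of 254 to 79.6 CPM (log2 fold change -1.19, SE 0.36, adjusted p = 0.00956), Igtp from a median of 195 to 75.9 CPM (log2 fold change -0.97, SE 0.30, adjusted p = 0.0114) and Tgtp2 from a median of 163 to 56.3 CPM (log2 fold change -1.13, SE 0.28, adjusted p = 0.00195). Counts of Igtp were fractional in all 17 tumors and those of Gbp4, Gbp7 and Tgtp2 in 15 or 16, and how reads shared with related genes were counted makes these levels uncertain. In the second set alone the call of Igtp was lost (adjusted p = 0.0980).

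Of 32 antiviral interferon-stimulated genes 26 fell, with a smaller median of -0.62. Ifitm3, which blocks viral entry, fell from a median of 198 to 133 CPM (log2 fold change -0.52, SE 0.12, adjusted p = 0.00132), Ifit2, an RNA-binding inhibitor of translation, from a median of 157 to 79.3 CPM (log2 fold change -0.90, SE 0.15, adjusted p = 2.07e-05) and Oasl2 from a median of 174 to 111 CPM (log2 fold change -0.56, SE 0.13, adjusted p = 0.00115). The calls were unequal between the sets, with 2 of 32 members called lower in the first and 29 in the second set (medians -0.28 and -0.89). Ifit2 changed by -0.35 in the first set (adjusted p = 0.209) and -1.35 in the second (adjusted p = 3.43e-08). A test of that difference called only 2 of 15755 genes. None of the 32 was among them, and so few calls cannot decide whether the antiviral change differed between the sets. Of 18 PYHIN and Schlafen genes, which hold DNA sensors and growth regulators, 15 fell with a median of -1.31. Ifi204, a DNA sensor, fell from a median of 139 to 48.8 CPM (log2 fold change -1.35, SE 0.20, adjusted p = 2.90e-06) and Slfn5 from a median of 103 to 38.2 CPM (log2 fold change -1.28, SE 0.19, adjusted p = 3.09e-06). The call of Slfn5 was lost in the first set alone (adjusted p = 0.0692), as were those of Ifit2 and Oasl2 (adjusted p = 0.465 for Oasl2).

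Of 11 genes of MHC class II presentation 9 fell, with a median of -1.19, and 8 did not overlap. H2-Ab1, a class II beta chain, was at 357 to 667 CPM (median 567) in the aPD1 tumors and 63.4 to 244 CPM (median 131) in the aPD1 + aIL2RB tumors. Cd74, the invariant chain that guards the peptide groove, was at 1201 to 1956 CPM (median 1649) in the aPD1 tumors and 165 to 679 CPM (median 400.3) in the aPD1 + aIL2RB tumors. Every aPD1 + aIL2RB tumor was below every aPD1 tumor in both, with log2 fold changes of -1.93 (adjusted p = 8.61e-04) and -1.97 (adjusted p = 6.80e-04). Ciita, the master regulator of class II, fell from a median of 37.6 to 11.2 CPM (log2 fold change -1.74, SE 0.40, adjusted p = 9.65e-04), and Ctss, the protease that trims the invariant chain, from a median of 954 to 439 CPM (log2 fold change -1.11, SE 0.17, adjusted p = 3.12e-06). Of 19 class I, loading and immunoproteasome genes 13 fell, with a median of -0.34 and overlap of the groups in all 19. H2-K1 fell from a median of 1763 to 1179.7 CPM (log2 fold change -0.50, SE 0.12, adjusted p = 0.00206) and B2m, the class I light chain, from a median of 1701 to 1230.1 CPM (log2 fold change -0.41, SE 0.11, adjusted p = 0.00243). Of 19 constitutive proteasome genes 5 were called lower, with a median of -0.06, and library-size scaling left none. In the first set alone 8 were lower, with a median of -0.19, and in the second none was lower and 1 higher, with a median of 0.02.

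All 6 genes of the CXCR3 and CXCR6 axes fell. Cxcl9, an interferon-gamma-induced chemokine that draws CXCR3-positive T cells, was at 346 to 594 CPM (median 462) in the aPD1 tumors and 42.2 to 332 CPM (median 103) in the aPD1 + aIL2RB tumors. The highest aPD1 + aIL2RB tumor, replicate 9, lay just under the lowest aPD1 tumor, replicate 2. Cxcl16, the ligand of CXCR6, fell from a median of 166 to 82.5 CPM (log2 fold change -0.94, SE 0.17, adjusted p = 5.25e-05) and Cxcr6 from a median of 13.5 to 0.771 CPM (log2 fold change -3.50, SE 0.49, adjusted p = 9.50e-07). Cxcl10 fell less (log2 fold change -0.64, SE 0.21, adjusted p = 0.0194), and the call was lost without aPD1 replicate 1 (-0.53, adjusted p = 0.0767), in the first set (-0.78, adjusted p = 0.0675) and in the second (-0.51, adjusted p = 0.138). Of 21 other chemokines and receptors 15 fell. Ccl9 fell from a median of 65.9 to 27.1 CPM (log2 fold change -1.22, SE 0.20, adjusted p = 7.14e-06).

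Of 17 tested inflammatory mediators 8 fell and none rose. Acod1, which makes itaconate in activated macrophages, was at 50.9 to 131 CPM (median 109) in the aPD1 tumors and 8.26 to 52.9 CPM (median 14.6) in the aPD1 + aIL2RB tumors (log2 fold change -2.17, SE 0.44, adjusted p = 1.91e-04). Replicates 3, 4 and 9 were the highest of the aPD1 + aIL2RB tumors, and only replicate 9 reached the lowest aPD1 tumor. Il18bp, an antagonist of IL-18, fell from a median of 34.9 to 9.23 CPM (log2 fold change -1.66, SE 0.29, adjusted p = 3.02e-05) and Tnf from a median of 14.3 to 4.52 CPM (log2 fold change -1.52, SE 0.25, adjusted p = 1.02e-05), both without overlap. Nos2, the inducible nitric oxide synthase, did not pass the threshold (log2 fold change -0.63, SE 0.25, adjusted p = 0.0513), but passed in the second set alone (-0.85, adjusted p = 0.00971), and without aPD1 + aIL2RB replicate 3, 4 or 9 or aPD1 replicate 2 (lowest adjusted p = 0.0197, without replicate 9). With the set as a term in the model Nos2 passed too.

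Of 13 genes of macrophage identity 12 fell, with a median of -0.85. Adgre1 (F4/80) was at 149.6 to 263 CPM (median 196) in the aPD1 tumors and 88.99 to 116 CPM (median 98.1) in the aPD1 + aIL2RB tumors without overlap (log2 fold change -0.97, SE 0.13, adjusted p = 6.90e-07). C1qa, a subunit of the complement starter C1q, fell from a median of 448 to 238 CPM (log2 fold change -0.92, SE 0.13, adjusted p = 6.05e-07), Lyz2 (lysozyme) from a median of 1471 to 921 CPM (log2 fold change -0.73, SE 0.11, adjusted p = 3.10e-06) and Csf1r, the receptor of the macrophage growth factor, from a median of 353 to 254 CPM (log2 fold change -0.50, SE 0.08, adjusted p = 1.27e-05). Mertk, a receptor for apoptotic cells, was the exception at 56.9 to 78.5 CPM (median 65.2) in the aPD1 tumors and 56.4 to 90.9 CPM (median 72.1) in the aPD1 + aIL2RB tumors (adjusted p = 0.223). Of 15 genes of alternatively activated and perivascular macrophages 5 fell. In the first set alone 2 were called higher and 1 lower, with a median of -0.04, and in the second none higher and 5 lower, with a median of -0.50. Mrc1 (CD206), the defining member, was at 112 to 198 CPM (median 158) in the aPD1 tumors and 114 to 162 CPM (median 145) in the aPD1 + aIL2RB tumors (log2 fold change -0.12, SE 0.12, adjusted p = 0.508). Timd4, a receptor for phosphatidylserine, fell from a median of 6.44 to 1.801 CPM (log2 fold change -1.76, SE 0.46, adjusted p = 0.00299), with an adjusted p of 0.103 in the first set alone.

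Ratios within tumors compare the macrophage genes without regard to scaling. The log2 ratio of Mrc1 to Adgre1 was -0.33 ± 0.35 (SD, n = 6) among aPD1 tumors against 0.51 ± 0.23 (SD, n = 11) among aPD1 + aIL2RB tumors, a difference of 0.84. That of H2-Ab1 to Adgre1 was 1.43 ± 0.30 (SD, n = 6) among aPD1 tumors against 0.34 ± 0.64 (SD, n = 11) among aPD1 + aIL2RB tumors, a difference of -1.09. That of Cxcl9 to Adgre1 was 1.26 ± 0.21 (SD, n = 6) among aPD1 tumors against 0.19 ± 0.79 (SD, n = 11) among aPD1 + aIL2RB tumors, a difference of -1.08. The differences were 0.61 in the first set and 1.07 in the second for Mrc1 and -1.15 in the first set and -1.06 in the second for H2-Ab1. For Cxcl9 they were -1.43 in the first set and -0.68 in the second.

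**Figure D3:**
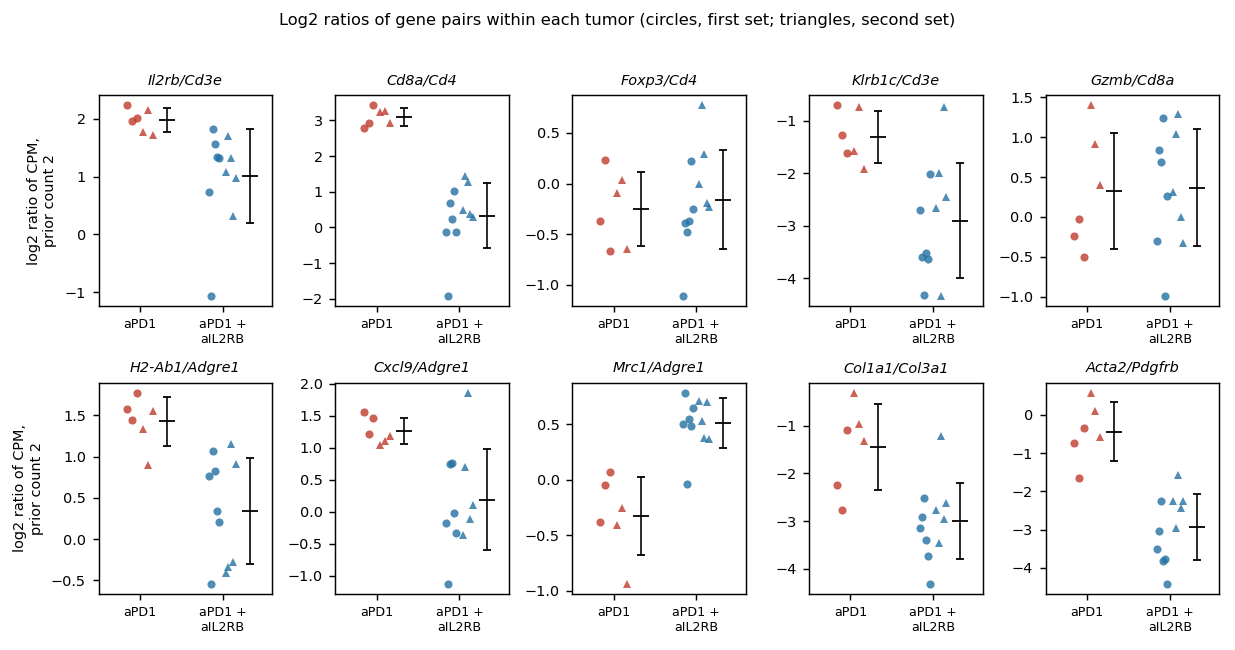
Log2 ratio of CPM of 10 gene pairs (first gene over second) in each aPD1 (red) and aPD1 + aIL2RB (blue) tumor, with circles for the first and triangles for the second set and the mean and SD beside them (prior count 2, which sets the Klrb1c/Cd3e ratio in the 5 aPD1 + aIL2RB tumors without a Klrb1c count). For these pairs, chosen after their values were seen and not tested, the group means differed by -2.77 for Cd8a/Cd4, 0.84 for Mrc1/Adgre1 and 0.09 for Foxp3/Cd4.

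Spp1 (osteopontin), at 147 to 313 CPM (median 204) in the aPD1 tumors and 185 to 424 CPM (median 252) in the aPD1 + aIL2RB tumors, was not called (log2 fold change 0.33, SE 0.22, adjusted p = 0.281), while 8 of 12 genes of Spp1-positive and lipid-handling macrophages fell. Lgals3 (galectin-3) fell from a median of 224 to 100.5 CPM (log2 fold change -1.03, SE 0.21, adjusted p = 1.97e-04) and Cd36, a scavenger receptor for lipids, from a median of 66.5 to 29.5 CPM (log2 fold change -1.26, SE 0.29, adjusted p = 8.06e-04). Of 10 monocyte and Fc gamma receptor genes 8 fell, among them Fcgr1 (log2 fold change -1.21, SE 0.19, adjusted p = 5.66e-06) and Fcer1g (log2 fold change -1.07, SE 0.16, adjusted p = 3.49e-06). Vcan, a matrix proteoglycan also made by stromal cells, rose from a median of 76.6 to 132 CPM (log2 fold change 0.67, SE 0.15, adjusted p = 8.43e-04). Complement fell in 10 of 12 genes, with a median of -1.10. C3, the central component, was at 61.1 to 156 CPM (median 129.6) in the aPD1 tumors and 19.6 to 67.5 CPM (median 28.6) in the aPD1 + aIL2RB tumors (log2 fold change -1.79, SE 0.30, adjusted p = 1.19e-05), and Cfb fell from a median of 198 to 48.4 CPM (log2 fold change -1.70, SE 0.27, adjusted p = 6.93e-06).

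Of 12 genes of conventional type 1 dendritic cells, which cross-present antigen to CD8 T cells, 6 fell and 2 rose. Changes of the 12 ranged from -2.33 to 1.21. The number of rises was 1 with DESeq2, 1 in the first set alone and 0 in the second. Xcr1, the chemokine receptor that defines them, was at 3.48 to 8.99 CPM (median 5.02) in the aPD1 tumors and 0.137 to 2.23 CPM (median 1.08) in the aPD1 + aIL2RB tumors without overlap (log2 fold change -2.33, SE 0.42, adjusted p = 3.99e-05). Cadm1, an adhesion molecule that binds CRTAM on T cells, fell from a median of 67.1 to 23.6 CPM (log2 fold change -1.42, SE 0.23, adjusted p = 1.16e-05). Clec9a, a receptor for dead cells in the same subset, was at 10.9 to 15.9 CPM (median 14.7) in the aPD1 tumors and 12.2 to 17.7 CPM (median 14.3) in the aPD1 + aIL2RB tumors (log2 fold change 0.04, SE 0.07, adjusted p = 0.713). Of 11 tested genes of mature dendritic cells and costimulation 7 fell and 1 rose, with Cd40 at -1.26 (adjusted p = 5.87e-04) and Cd86 at -0.81 (adjusted p = 8.20e-04). Of 14 tested neutrophil genes 4 fell and 1 rose. The G-CSF receptor gene Csf3r fell from a median of 30.3 to 9.903 CPM (log2 fold change -1.57, SE 0.24, adjusted p = 3.21e-06), the protease gene Mmp9 rose from a median of 179 to 357 CPM (log2 fold change 0.97, SE 0.18, adjusted p = 7.48e-05), and the defining neutrophil genes Ly6g and Retnlg had at most 6 and 2 counts in any of the 17 tumors. Of 12 inflammasome and cell death genes 9 fell, with Ripk1 at -0.37 (adjusted p = 1.33e-05) and Gsdmd, the pore former of pyroptosis, at -0.29 (adjusted p = 0.00139). The call of Gsdmd was lost in the first set alone (adjusted p = 0.178).

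Matrix genes went both ways. Of 25 collagen and extracellular matrix genes 10 rose and 8 fell. Dcn (decorin), a small proteoglycan that binds collagen and TGF-beta, was at 325 to 571 CPM (median 449) in the aPD1 tumors and 724 to 1009.9 CPM (median 877) in the aPD1 + aIL2RB tumors. Fn1 (fibronectin) was at 1019.8 to 1545 CPM (median 1373) in the aPD1 tumors and 1787 to 2976 CPM (median 2474) in the aPD1 + aIL2RB tumors. All 11 tumors lay above all aPD1 tumors in both genes, and the rises were 0.93 (adjusted p = 9.60e-11) and 0.87 (adjusted p = 1.42e-07). Col3a1, the chain of type III collagen, rose from a median of 1699.8 to 3359 CPM (log2 fold change 0.94, SE 0.17, adjusted p = 3.17e-05), and Col6a1 and Col6a2, chains of type VI collagen, rose by 0.90 and 0.86.

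Not every matrix gene was higher. Col1a1 was at 304 to 1280.2 CPM (median 733) in the aPD1 tumors and 217 to 866 CPM (median 471) in the aPD1 + aIL2RB tumors (log2 fold change -0.67, SE 0.22, adjusted p = 0.0191), and the call was lost without aPD1 replicate 4 (adjusted p = 0.165) and in the first set (adjusted p = 0.487). Col12a1, a collagen that decorates type I fibrils, fell from a median of 92.7 to 45.7 CPM (log2 fold change -1.25, SE 0.23, adjusted p = 7.09e-05). The log2 ratio of Col1a1 to Col3a1 was -1.45 ± 0.90 (SD, n = 6) among aPD1 tumors against -3 ± 0.79 (SD, n = 11) among aPD1 + aIL2RB tumors, a difference of -1.56. The difference was -1.31 in the first set and -1.74 in the second.

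Of 15 fibroblast and pericyte genes 5 rose and 3 fell. Pdgfra, a receptor of most fibroblasts, rose from a median of 147 to 276 CPM (log2 fold change 0.81, SE 0.14, adjusted p = 2.72e-05) and Pdgfrb, a receptor of pericytes and fibroblasts, from a median of 60.00 to 105 CPM (log2 fold change 0.79, SE 0.12, adjusted p = 4.32e-06). Acta2, the smooth muscle actin of contractile fibroblasts, was at 20.6 to 75.8 CPM (median 44.01) in the aPD1 tumors and 5.696 to 21.9 CPM (median 13.4) in the aPD1 + aIL2RB tumors. Only aPD1 replicate 2 reached into the range of the aPD1 + aIL2RB tumors, and Acta2 and Tagln, another contractile gene, fell by 1.71 (SE 0.26, adjusted p = 4.11e-06) and 1.84 (SE 0.33, adjusted p = 3.33e-05). The log2 ratio of Acta2 to Pdgfrb was -0.44 ± 0.77 (SD, n = 6) among aPD1 tumors against -2.94 ± 0.87 (SD, n = 11) among aPD1 + aIL2RB tumors, a difference of -2.50. The difference was -2.56 in the first set and -2.33 in the second. Among 13 tested TGF-beta and WNT ligands and targets, Tgfb3 rose from a median of 54.5 to 130.4 CPM (log2 fold change 1.21, SE 0.19, adjusted p = 5.09e-06) and 4 fell, with Tgfb1 at -0.23 (adjusted p = 0.00939) and the TGF-beta and YAP target Ccn2 at -1.04 (adjusted p = 0.00108). The call of Tgfb1 was lost in the first set (adjusted p = 0.107). Of 17 endothelial genes 3 rose and 3 fell, with a median of 0.04 and changes from -1.39 to 0.62, where 27.4% of all genes were called. Against isotype 4 of the 17 were called higher and none lower. Icam1, an adhesion molecule for leukocytes that interferon-gamma and TNF induce, fell from a median of 38.97 to 14.9 CPM (log2 fold change -1.10, SE 0.18, adjusted p = 8.97e-06), and Pecam1 (CD31) did not pass (log2 fold change -0.29, SE 0.12, adjusted p = 0.0698). Pecam1 passed with the set as a term in the model, in the second set alone (-0.50, adjusted p = 0.00159), without aPD1 replicate 2 (-0.37, adjusted p = 0.0181) and without aPD1 + aIL2RB replicate 1 (-0.33, adjusted p = 0.0450).

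Of the 12 largest rises chosen among genes without overlap, Epha3 led. This ephrin receptor of mesenchymal and tumor cells was at 1.58 to 5.21 CPM (median 3.19) in the aPD1 tumors and 9.48 to 18.5 CPM (median 12.8) in the aPD1 + aIL2RB tumors (log2 fold change 2.02, SE 0.24, adjusted p = 5.24e-08). Kcne3, an accessory subunit of potassium channels, was at 1.43 to 3.06 CPM (median 1.67) in the aPD1 tumors and 4.24 to 9.66 CPM (median 6.66) in the aPD1 + aIL2RB tumors (log2 fold change 1.85, SE 0.22, adjusted p = 5.24e-08). In both genes the lowest of the 11 aPD1 + aIL2RB tumors was above the highest aPD1 tumor. The rises that followed were those of Serpina1d, an alpha-1 antitrypsin gene (1.46), Kcnj8, a potassium channel of pericytes (1.41), the imprinted gene Mest (1.40), the tumor antigen gene Magea5 (1.38), Tmem255a (1.24), Capn6 (1.18), Hic1, a transcriptional repressor (1.13), Slxl1 (1.12), Mmp11, a matrix protease of stromal cells (1.12), and Ednrb, an endothelin receptor (1.03). Counts of Slxl1, Mest, Magea5 and Serpina1d were fractional in 12 to 16 of the 17 tumors. By smallest p the leading rises were Dcn, Ltbp3, which tethers latent TGF-beta to the matrix (log2 fold change 0.72, SE 0.07, adjusted p = 4.79e-09), Mmp11 (log2 fold change 1.12, SE 0.12, adjusted p = 5.77e-09), Dpysl3 (log2 fold change 0.65, SE 0.07, adjusted p = 1.16e-08), Mrc2, a collagen uptake receptor (log2 fold change 0.79, SE 0.09, adjusted p = 1.57e-08), and Tspan7 (log2 fold change 0.88, SE 0.10, adjusted p = 3.69e-08).

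Genes of growth, metabolism and stress were examined next. None of 14 glycolysis, 9 fatty acid synthesis and 13 mitochondrially encoded genes was called higher, and 1, 0 and 0 were called lower. Of 20 cholesterol synthesis genes 1 was called higher and none lower, with a median of 0.03. In the first set alone 2 of them were lower, and in the second 6 were higher. Of 18 mitosis genes 1 and of 18 DNA replication genes 6 were lower, with medians of -0.01 and -0.09. Pcna, the sliding clamp of replication, was at -0.19 (adjusted p = 0.0159), with an adjusted p of 0.743 in the second set alone. The replication calls numbered 10 in the first set and 0 in the second, and library-size scaling left none. Of 14 hypoxia genes 5 rose. Ddit4, an inhibitor of mTORC1 induced by hypoxia and stress, was at 16.1 to 33.2 CPM (median 22.7) in the aPD1 tumors and 37.7 to 57.5 CPM (median 47.3) in the aPD1 + aIL2RB tumors without overlap (log2 fold change 0.95, SE 0.15, adjusted p = 5.19e-06), and Vegfa rose by 0.26 (adjusted p = 0.00440, or 0.174 in the second set alone). Of 12 genes of the unfolded protein and integrated stress responses 4 rose and 1 fell, with Herpud1 at 0.40 (adjusted p = 4.61e-04) and Ddit3 (CHOP) at 0.65 (adjusted p = 1.18e-04). Of 76 cytoplasmic ribosomal protein genes 38 were called higher and none lower with a median of only 0.16, and the count was 0 in the first set alone and 50 in the second.

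Markers of other tissues were checked. Skeletal muscle genes moved with the groups, with 14 of 18 called lower, a median of -2.48 and overlap of the groups in all 18. The count was 12 in the first set alone and 0 in the second, with medians of -2.79 and -2.17. Their summed level was 26.3 to 1552 CPM in aPD1 and 28.9 to 249 CPM in aPD1 + aIL2RB tumors. Acta1, the actin of skeletal muscle, was at 0.172 to 255 CPM (median 28.9) in the aPD1 tumors and 1.19 to 26.8 CPM (median 12.2) in the aPD1 + aIL2RB tumors, and without aPD1 replicate 3 its adjusted p was 0.348, and in the second set alone 0.281. The 4 aPD1 tumors with the most muscle RNA were replicates 1, 3, 5 and 6. With aPD1 replicates 2 and 4 alone, 1777 genes were called, 576 higher and 1201 lower. Of 127 genes named here and called, 29 then missed the threshold in this smaller comparison, namely Il15ra, Socs3, Bcl2, Foxp3, Il10, Gimap6, Cd274, Irf1, Gbp7, Gbp4, Iigp1, Igtp, Tgtp2, Ifitm3, H2-K1, B2m, Cxcl9, Cxcl10, Timd4, Vcan, Cd40, Gsdmd, Col1a1, Tgfb1, Slxl1, Pcna, Vegfa, Herpud1 and Acta1, which also changed sign. The list medians were -2.85 for T cell receptor, -3.42 for NK cell, -1.20 for class II, -0.92 for macrophage and 3.44 for muscle genes. Summed adipocyte genes were at 15.7 to 108 CPM and 22.9 to 90.01 CPM, keratinocyte genes at 9.19 to 45.6 CPM and 7.15 to 31.1 CPM, and erythroid genes at 13.7 to 654 CPM and 23.5 to 211 CPM, with 2, 1 and 0 members called lower. Their part in the other results was not tested.

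The 11 aPD1 + aIL2RB tumors varied among themselves. Replicate 9 was the highest of them for Ifng, Gbp2b, Cxcl9 and Cd274 and the lowest for Col3a1, and replicate 3 was the highest for Cd8a, Il2rb, Cd4 and Foxp3. Across the 11 tumors, Cd8a and Il2rb had a Pearson's r of 0.94 and a Spearman's rho of 0.93. Ifng and Gbp2b had a Pearson's r of 0.90 and a Spearman's rho of 0.86, and Ifng and Cxcl9 a Pearson's r of 0.79 and a Spearman's rho of 0.80. Cd3e and H2-Ab1 had a Pearson's r of 0.85 and a Spearman's rho of 0.82. Without the 2 tumors farthest from the median of the first gene, r was 0.89, 0.69, 0.65 and 0.79. Cd8a and Cxcl9 were less close, with a Pearson's r of 0.68 and a Spearman's rho of 0.62, and r fell to 0.39 without the 2 farthest tumors. Cd4 and Foxp3 had a Pearson's r of 0.92 and a Spearman's rho of 0.87. These are 6 relations in log2 CPM between genes chosen after their values were seen, so they are a description, without a test. In the first set (n = 6), r was 0.61 for Ifng with Cxcl9, 0.85 for Ifng with Gbp2b, 0.95 for Cd8a with Cxcl9, 0.98 for Cd8a with Il2rb, 0.87 for Cd3e with H2-Ab1 and 0.75 for Cd4 with Foxp3. No r was taken in the second set, so whether these relations hold in both sets is not shown.

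The aPD1 + aIL2RB tumors were also compared with tumors given control antibodies only. Against isotype, 542 genes (3.20%) were called, 287 (1.70%) higher and 255 (1.51%) lower. Of the lymphocyte lists, 12 of 25 T cell receptor, 9 of 17 NK cell and 11 of 16 cytotoxic genes were called lower, with medians of -1.85, -2.17 and -2.54. None of 9 B cell genes was called by edgeR or DESeq2 (3 had an unadjusted p under 0.05), and of 7 regulatory T cell genes 1, Lrrc32, was called, higher. Of 15 alternatively activated and perivascular macrophage genes 4 (F13a1, Cd163, Gas6 and Folr2) were higher and 2 (Retnla and Mgl2) lower, with a median of 0.40, and DESeq2 called 7. Of 19 class I genes 3 (H2-Q7, Psmb8 and Psme2) were lower, and 15 had an unadjusted p under 0.05. Of 32 antiviral interferon-stimulated genes 1, Ddx58, was called, higher, with a list median of 0.32, while 13 had an unadjusted p under 0.05 and DESeq2 called 4. No call was made among 11 guanylate-binding proteins, 9 immunity-related GTPases, 18 PYHIN and Schlafen genes, 11 class II genes or 13 macrophage genes, and 14 of these members had an unadjusted p under 0.05. DESeq2 called 1. The medians of these lists were -0.08, -0.19, 0.13, -0.66 and -0.21. Il2rb, at 15.6 to 23.03 CPM (median 17.99) in isotype tumors, changed by -2.43 (SE 0.49, adjusted p = 0.00327), and Gzmc by -5.10 (SE 0.56, adjusted p = 4.05e-08). Cxcl9 and H2-Ab1, which were lower than in aPD1 tumors, did not pass against isotype, with changes of -0.74 (SE 0.45, adjusted p = 0.384) and -1.16 (SE 0.47, adjusted p = 0.170). Acta2, at 10.1 to 20.9 CPM in isotype tumors, changed by -0.08 (SE 0.29, adjusted p = 0.919). The rises of Dcn and Epha3 also stood against isotype, with 0.60 (SE 0.09, adjusted p = 1.83e-05) and 1.90 (SE 0.25, adjusted p = 2.46e-06), while Kcne3, at 4.58 to 5.38 CPM there, changed by 0.41 (SE 0.21, adjusted p = 0.287). Of 25 matrix genes 6 were higher than in isotype, and of 20 cholesterol synthesis genes 9 were lower. Leaving out 1 tumor moved the number of calls most for isotype replicates 4 (226), 2 (283), 5 (284) and 3 (349) and for aPD1 + aIL2RB replicates 1 (349) and 9 (960).

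Against tumors given the GM-CSF antibody with PD-1 blockade, 258 genes (1.52%) were called, 106 (0.626%) higher and 152 (0.898%) lower. Of T cell receptor, NK cell and cytotoxic genes 11 of 25, 11 of 17 and 9 of 16 were lower, with medians of -1.69, -2.40 and -2.23. None of the guanylate-binding protein, GTPase, PYHIN and Schlafen, class II or macrophage identity genes was called, 13 had an unadjusted p under 0.05, and DESeq2 called 0. Their medians were -0.08, -0.06, -0.04, -0.39 and -0.13. Il2rb, at 13.01 to 27.5 CPM (median 19.1) in aPD1 + aGMCSF tumors, changed by -2.42 (SE 0.44, adjusted p = 0.00133), and Cd8a by -2.63 (SE 0.50, adjusted p = 0.00177). Gzmb, with -1.76 (SE 0.55, adjusted p = 0.1001), and Cxcl9, with -0.51 (SE 0.38, adjusted p = 0.626), did not pass. Epha3 and Dcn were higher here too, by 1.06 (SE 0.19, adjusted p = 0.00103) and 0.40 (SE 0.07, adjusted p = 8.28e-04). Leaving out aPD1 + aGMCSF replicate 1 gave 162 calls, aPD1 + aIL2RB replicate 6 gave 170 and aPD1 + aIL2RB replicate 9 gave 469. Of 15 alternatively activated and perivascular macrophage genes 3 (F13a1, Folr2 and Pf4) were higher and none lower, with a median of 0.37, while 9 had an unadjusted p under 0.05 and DESeq2 called 6. These comparisons share the aPD1 + aIL2RB tumors, so their values are given side by side only.

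**Figure D4:**
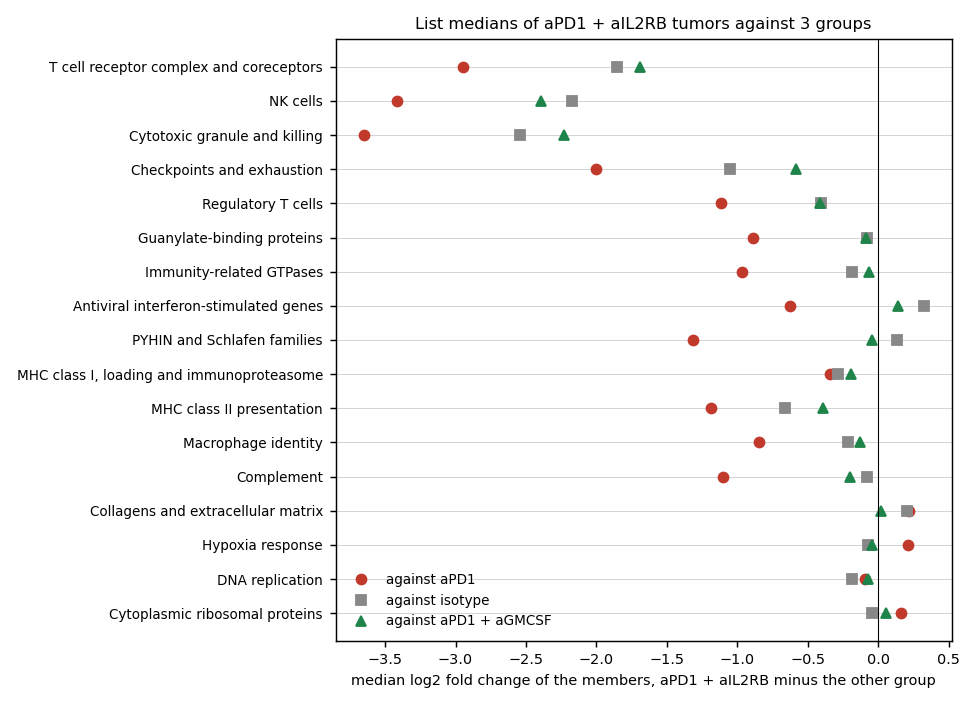
Median log2 fold change of the members of 17 gene lists (x axis) in aPD1 + aIL2RB tumors against aPD1 (red circles), isotype (gray squares) and aPD1 + aGMCSF (green triangles) tumors. The NK cell list had medians of -3.41 against aPD1, -2.17 against isotype and -2.40 against aPD1 + aGMCSF, and that of immunity-related GTPases was -0.97 against aPD1, -0.19 against isotype and -0.06 against aPD1 + aGMCSF.

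Within the sets, 1174 genes were higher and 1539 lower in the first (3 against 6 tumors) and 1462 and 2221 in the second (3 against 5). Of these, 1445 were called in the same and 9 in opposite directions in both. A test of the difference between the sets called 2 of 15755 genes (0.0127%). Ptn (pleiotrophin), a secreted growth factor, changed by 2.32 in the first set (adjusted p = 3.69e-04) and -0.25 in the second (adjusted p = 0.522), a difference of -2.56 (adjusted p = 0.0478). Gm26699, a gene without an assigned name, changed by 3.97 in the first set and -1.78 in the second, a difference of -5.75 (adjusted p = 0.0478).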

How the data were processed

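Poly(A) RNA of whole tumors was sequenced on 42 tumors. The authors aligned reads with Bowtie 1.2.3 to transcriptomes of the founder strains, converted the alignments to EMASE format, quantified them with gbrs and deposited total expected counts per gene (GRCm38), so 15.2% of values are not whole. Counts were rounded and genes filtered with filterByExpr over 5 groups (minimum count 10, minimum total 15), which kept 16932 of 26811 genes. All groups entered 1 quasi-likelihood model in edgeR 4.0.16 (R 4.3.3) with TMM normalization and Benjamini-Hochberg adjustment. DESeq2 1.42.0, other scalings, filters, sets and omitted tumors were alternatives, of which the fits with aPD1 replicates 2 and 4 only and without aPD1 + aIL2RB replicates 3 and 9 were chosen after seeing the data. The procedure was tested on simulated data. No pair of the 17 tumors agreed within sampling noise. The labels call the tumors biological replicates without naming mice, so p-values measure the spread between these tumors.

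Members and gene lists were chosen with earlier results of these data known. Genes were named as the 12 largest rises and falls among called genes whose groups did not overlap and whose mean log2 CPM reached 1, the 6 smallest p in each direction, Il2rb, and up to 4 of the highest-CPM called members of a list with its receptor, ligand or defining genes. The following, some of them defining genes, were named after their values were seen: Cish, Il15, Il2, Cd3e, Cd4, Tcf7, Klra7, Trdc, Fasl, Gzmm, Pdcd1, Ifng, Gbp2b, Gbp5, H2-Ab1, Ciita, Nos2, Adgre1, Mertk, Mrc1, Spp1, Xcr1, Clec9a, Ly6g, Retnlg, Col1a1, Col12a1, Acta2, Tagln, Pecam1, Krt8, Prlr, Ptn, Ddx58, Lrrc32, F13a1, Cd163, Gas6, Folr2, Retnla, Mgl2, Pf4, H2-Q7, Psmb8, Psme2 and Gm26699, and the gene pairs. Coordinates follow GENCODE gene models of GRCm38. Promoter windows come from RefSeq. Some genes are not reported here.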

Additional observations from a re-analysis of the deposited data

Results flagged for a closer look

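Among 140 gene levels examined in the 6 aPD1 tumors, 9 had 1 tumor far from the others by Dixon's ratio of its gap to the range (critical value 0.625), and chance flags about 1 in 20 groups. In replicate 1, Klrd1 (ratio 0.836, 15.6 CPM against a next value of 9.08) and Klrb1c (ratio 0.698, 8.01 CPM against a next value of 4.17) were high. In replicate 2, C3 (ratio 0.644, 61.1 CPM against a next value of 122) and Dpysl3 (ratio 0.628, 66.1 CPM against a next value of 78.5) were low and Kcne3 (ratio 0.735, 3.06 CPM against a next value of 1.86) was high. In replicate 3, Il15 (ratio 0.634, 6.38 CPM against a next value of 7.29) was low and Acta1 (ratio 0.707, 255 CPM against a next value of 74.9) was high. Prf1 was high in replicate 4 (ratio 0.633, 34.6 CPM against a next value of 18.7) and Ighm in replicate 6 (ratio 0.653, 59.3 CPM against a next value of 37.5). The change with the IL2RB antibody differed between the sets, by edgeR's test of the difference, for Ptn (second minus first set -2.56, adjusted p = 0.0478) and Gm26699 (-5.75, adjusted p = 0.0478). At an unadjusted p under 0.05 there were 2291 such genes.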

How the results depend on the processing

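Against aPD1, 4647 genes were called. The first set alone gave 2713 and aPD1 replicates 2 and 4 alone 1777, both with fewer samples. Leaving out 1 tumor gave 3740 (without aPD1 replicate 4) to 5063 (without aPD1 + aIL2RB replicate 9) calls. Against isotype, the 542 calls became 930 without aPD1 + aIL2RB replicates 3 and 9 and 277 in the second set, and 226 to 960 with 1 tumor left out. Against aPD1 + aGMCSF, the 258 calls became 398 with DESeq2, 506 without aPD1 + aIL2RB replicates 3 and 9, 167 with at least 10 counts in every tumor, 476 with only the groups compared, 62 in the second set, 404 with the set as a term, and 162 to 469 with 1 tumor left out. The 2 genes that differed between the sets became 17 with all 5 groups in the fit, 0 by edgeR's adjusted test with at least 10 counts in every tumor (where 2109 had an unadjusted p under 0.05, and no other tool was run) and 1 with library size only. The cause of these shifts was not tested. The labels number the replicates in each group. Deviations of same-numbered aPD1 and aPD1 + aIL2RB tumors correlated at 0.18, 0.15 and 0.02 for replicates 1 to 3, which shared a set. For replicates 4 to 6, which lay in different sets, the values were -0.04, -0.09 and 0.01. Those pairs cross the sets and cannot decide whether the numbers pair tumors. Of 6 aPD1 tumors 1 matched its own number best. With a replicate block there were 3929 calls against aPD1, 1464 against isotype and 644 against aPD1 + aGMCSF. Against aPD1 the blocks of replicates 4 to 6 also joined tumors of different sets.

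Of 127 named genes called, 93 kept their call and direction in every alternative run that tested them, and 5 lost the call without 1 tumor. A gene that a filter left out of a run was not counted as lost there. Ncr1, for example, could not enter the fit with at least 10 counts in every tumor. Signs changed for these. Acta1 became 3.82 with aPD1 replicates 2 and 4 only. Gzmm, never called, became -0.00289 without aPD1 + aIL2RB replicates 3 and 9, -0.19 with aPD1 replicates 2 and 4 only and -0.0551 in the second set, and ranged from -0.11 to 0.23 with 1 tumor left out. Clec9a, never called, became -0.0926 in the first set and -0.00173 with the replicate block, and ranged from -0.0205 to 0.0828 with 1 tumor left out. Ptn was -0.25 in the second set. The log2 ratio difference of Foxp3 to Cd4 was -0.13 in the first set and ranged from -0.00277 to 0.19 with 1 tumor left out, and that of Gzmb to Cd8a was -0.44 in the second set and ranged from -0.12 to 0.26. Cd4, Nos2 and Pecam1, not called, passed with the set as a term. Depth limits the genes near 0, since Ncr1 had 0 counts in 229411632 over 11 tumors, and floors cover counting error only.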
